A study of Mus musculus with 4 samples.

Results

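The lens crystallins are 10 genes here, namely Cryaa, Cryab, Cryba1, Cryba2, Cryba4, Crybb1, Crybb2, Crybb3, Crygs and Crygn. They were taken by gene name from the RefSeq identifiers of the count tables, and all 10 were present among the 23003 genes of those tables. RNA-seq was performed on polyA-selected RNA of mTEChi, epithelial cells of the thymic medulla sorted for abundant MHC class II. There were 2 WT libraries (WT mice of the B6 strain) and 2 libraries labelled Aire-KO (Aire-/- mice on the B6 background), and each library came from sorted cells of 4 pooled mice at 4 weeks of age. A first experiment gave replicate 1 of each genotype and a replicate experiment gave replicate 2. WT mice were purchased and the Aire-deficient mice came from another laboratory, so genotype and colony cannot be told apart, and with cells sorted from pooled thymi a change in the number of expressing cells cannot be told apart from a change in RNA per cell.

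Crystallins are the abundant water-soluble proteins of the eye lens. The alpha-crystallins are small heat shock proteins that act as chaperones, whereas the beta- and gamma-crystallins share a fold and are mainly structural, packing densely in lens fibre cells. Medullary thymic epithelial cells transcribe many genes of peripheral tissues, in large part with the help of the nuclear protein Aire, and so display antigens of those tissues to developing T cells. Cryab is also made outside the lens, in heart, skeletal muscle and other stressed or contractile tissues.

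Reads assigned to genes, with 1 RefSeq identifier per gene, numbered from 79040234 to 169143187 per library. The correlation of log counts was 0.953 for the WT pair and 0.964 for the Aire-KO pair. Aire itself had 87229 and 36597 counts in the WT libraries and 200697 and 175884 in the libraries labelled Aire-KO (log2 fold change of -1.64 ± 0.46 (SE) with Aire-KO as the denominator, adjusted p = 0.0903 by the edgeR quasi-likelihood test, 0.00103 with the experiment as a block and 0.00746 with DESeq2). Which exons the deletion removes is not given in the sources used here, so counts over the whole gene do not check the labels, and every direction below rests on them. The 8 markers of mTEChi were abundant in every library. Their summed level was 16250 and 24810 CPM (counts scaled to library depth) in WT and 29470 and 33970 CPM in Aire-KO. Cd74 and H2-Aa made up most of each sum. The median log2 fold change of the 8 was -0.62, and 4 had both Aire-KO libraries above both WT libraries (20.9% of all genes tested). With the experiment as a block 3 (Aire, Cd80 and Tnfrsf11a) were lower in WT, against 9.43% of all genes. Of 5 fibroblast markers, Col1a2, Col3a1 and Dpt were lower in WT (0.273% of all genes tested were). Pdgfra and Col1a1 did not pass, with log2 fold changes of -1.41 and -0.16. The summed level of the fibroblast list was 86.8 and 62.7 CPM in WT against 170.6 and 218.9 CPM in Aire-KO. Among the remaining cell type markers, Adgre1 of macrophages and Enpep of cortical epithelium were higher in WT (6.23% of all genes tested were). The other measured markers of dendritic cells and macrophages did not pass, with log2 fold changes of 1.35 (Itgax), 0.64 (Csf1r) and 0.11 (Lyz2). The summed level of that list was 391.0 and 719.5 CPM in WT and 492.7 and 506.1 CPM in Aire-KO. The other cortical markers did not pass, with log2 fold changes of 0.67 (Psmb11), -0.15 (Prss16) and -0.87 (Ly75). The summed level of the cortical list was 98.7 and 113.4 CPM in WT and 142.8 and 98.0 CPM in Aire-KO. No thymocyte, B cell or endothelial marker passed the test. Of the 6 thymocyte markers, however, 5 had both WT libraries above both Aire-KO libraries, against 29.1% of all genes tested. The remaining one, Cd4, went the other way. It had 15.2 and 22.76 CPM in WT and 26.25 and 32.01 CPM in Aire-KO (log2 fold change of -0.62). With the experiment as a block 3 (Cd3g, Cd8a and Lck) were higher, against 15.6% of all genes. The median log2 fold change of the 6 was 1.12. The summed level of the 6 was 42.1 and 70.8 CPM in WT and 41.0 and 51.3 CPM in Aire-KO. The part of these other cells in the results below was not tested.

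Because the crystallins were compared between genotypes as a family, the DNA around their transcription starts is shown first. The RefSeq promoter table (GRCm38.p6, from 250 bases before to 50 bases after the start) held 9 of the 10 genes, without Cryab. The letters TATAAA, the TATA box at which the basal transcription machinery assembles, were found on either strand in 4 of the 9 promoters (44.4%), against 13.6% of 32851 promoters in the table and 23.4% of the 1100 promoters of genes higher in WT. In Crybb1, Cryba1 and Crygs they stood where a TATA box is usually found, and in Cryba2 at position -3. The windows of 30 bases below show these letters in capitals. Each window occurred once on the gene's chromosome in mm9, whose coordinates are given, with the strand of the gene and the position counted from the start in the RefSeq promoter table. That start differs from the mm9 gene start in the GENCODE spans given below for 4 of the 8 genes shown (Cryaa, Cryba1, Crybb1 and Crygn). The difference is largest for Crygn, whose TGCTGA copy at -228 lies at -68 from the mm9 start.

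Crybb1 (chr5:112684798-112684827, plus strand, motif at -30): tgtctgccaggcTATAAAatggggggttgg
Cryba1 (chr11:77538801-77538830, minus strand, motif at -23): catctgtgggacTATAAAgaggggatccgg
Crygs (chr16:22811491-22811520, minus strand, motif at -25): tgaactgccctcTATAAAtgtccctctgcc

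TGCTGA, the core of the sequence recognised by the large Maf transcription factors that drive lens fibre genes, was present in 8 of the 9 promoters (88.9%), with Crybb2 as the exception. It was present in 19.5% of all promoters and in 25.1% of those of genes higher in WT. Cryba4 held it at -182, -135 and -77, of which the nearest is shown. The windows below print the gene's own strand, where a copy on the other strand reads TCAGCA. GAANNTTC, the core of the heat shock element, was in none of the 9 promoters and in 7.9% of all promoters. A match is a description of these letters and does not show that a factor binds.

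Cryba2 (chr1:74939849-74939878, minus strand, motif at -149): acgatgtgcgccTCAGCActttccgttgtc
Crygn (chr5:24263877-24263906, minus strand, motif at -228): ccgagccctgacTCAGCAgggcagcaagca
Cryba4 (chr5:112681598-112681627, minus strand, motif at -77): ctatctctggctTGCTGAgtctgtgtttgt
Crybb1 (chr5:112684744-112684773, plus strand, motif at -84): cccatccaggttTGCTGAcccagctgcctc
Crybb3 (chr5:113510654-113510683, minus strand, motif at -67): caggatgctatcTCAGCAtcccgtaatgtg
Cryba1 (chr11:77538835-77538864, minus strand, motif at -57): gggaaaagagagTGCTGAcagagccgctgg
Crygs (chr16:22811666-22811695, minus strand, motif at -200): gggtgccttgatTCAGCAgagcctacaatg
Cryaa (chr17:31814756-31814785, plus strand, motif at -108): gagcattccagcTGCTGAcggtgcagcctc

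In WT mTEChi all 10 crystallins were detected with at least 203 counts per library. Levels between genes were compared as reads per kilobase scaled to library depth (RPKM). Cryab, the widely expressed alpha-crystallin, had the highest level at 46.9 ± 15.4 RPKM (SD, n = 2), above 91.3% of the 21383 genes with a length. Cryaa, the alpha-crystallin largely restricted to lens, followed at 29.6 ± 14.0 RPKM, and the acidic beta-crystallin Cryba2 at 20.7 ± 9.04 RPKM. The order went on with Cryba4 (12.9 RPKM), Crybb1 (11.0 RPKM), Crybb3 (9.59 RPKM), Crybb2 (9.06 RPKM), Crygn (7.77 RPKM), Crygs (6.51 RPKM) and Cryba1 (3.26 RPKM), the last above 44.8% of genes. The ranges of every pair of neighbours in this order overlapped, so the order between neighbours was not resolved. All 10 genes had a higher level in WT replicate 2 than in WT replicate 1, and their summed level was 106.2 RPKM in replicate 1 and 208.5 RPKM in replicate 2.

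The family had another order in Aire-KO mTEChi. The summed level was 26.1 and 54.4 RPKM in the libraries labelled Aire-KO. Cryab remained high at 26.4 ± 13.2 RPKM, above 85.6% of genes, and was followed by Crybb3 (4.92 RPKM) and Crybb1 (2.89 RPKM). Cryaa was at 0.313 ± 0.176 RPKM, above 29.6% of genes, where in WT it had been above 86.1%. Crybb2, Crygs and Cryba1 were each under 0.1 RPKM in both Aire-KO libraries. Of all crystallin counts, Cryab made up 41.2% and 34.8% in the WT libraries and 73.9% and 74.0% in the Aire-KO libraries. The share of Cryaa was 22.4% and 23.6% in WT and 0.81% and 0.90% in Aire-KO.

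**Figure D1:**
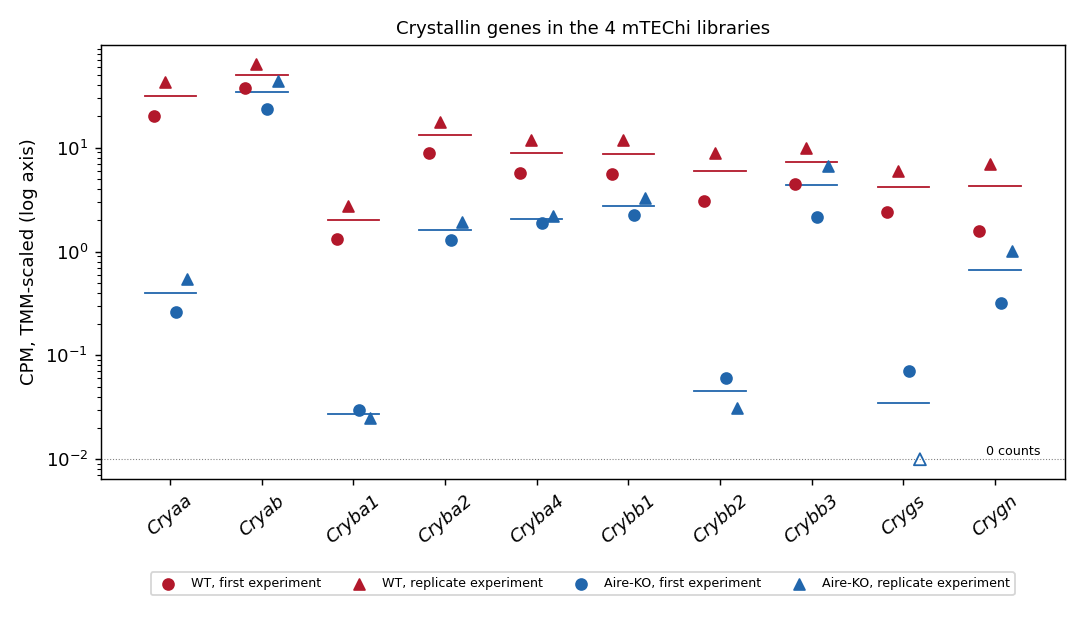
Level of each of the 10 crystallin genes in CPM on TMM-scaled library totals (log axis), with 1 point per library and a line at the mean of each genotype. WT points lie above both Aire-KO points for 8 genes and overlap them for Cryab and Crybb3, and the open triangle marks the 0 counts of Crygs in Aire-KO replicate 2.

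To ask which crystallins differed between WT and Aire-KO mTEChi, all genes were fitted together with edgeR (quasi-likelihood test, TMM scaling), and log2 fold changes are given as WT over Aire-KO. Of the 10 genes, 5 were higher in WT (Cryaa, Cryba1, Cryba2, Crybb2 and Crygs) and none was lower, where 6.23% of the 19771 genes tested were higher and 0.273% were lower. The fitted difference was above 0 for all 10, with a median of 2.86 on the log2 scale against -0.03 over all genes. Both WT libraries lay above both Aire-KO libraries in TMM-scaled CPM for 8 of the 10, and for 29.1% of all genes tested, and the reverse held for none of the 10 and for 20.9% of all genes. Within each experiment WT was above Aire-KO for all 10, as it was in both experiments for 37.7% of all genes. With the experiment as a block, 8 of the 10 crystallins were higher and none lower (15.6% and 9.43% of all genes), the additional ones being Cryba4, Crybb1 and Crygn, and DESeq2 likewise called 8 (12.7% of its genes). A fitted log2 fold change of at least 6 was found for 4 of the 10 (Cryaa, Cryba1, Crybb2 and Crygs) and for 3.77% of all genes.

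The 2 alpha-crystallins, which encode related chaperones, differed in their response. Cryaa, on chromosome 17 of mm9 (chr17:31814878-31818667), had 20.4 and 43.1 CPM in the WT libraries and 0.260 and 0.540 CPM in the Aire-KO libraries. The groups lay far apart, with a log2 fold change of 6.29 ± 0.69 (SE; 95% interval 4.62 to 7.96, adjusted p = 0.0164), which ranked 697 of all genes tested. In the first experiment the fold was 78.2 (exact 95% interval of counting error 53.2 to 119.9) and in the replicate experiment 79.9 (64.6 to 99.9). Cryab, on chromosome 9 (chr9:50560863-50564738), had 37.4 and 63.5 CPM in WT and 23.7 and 44.4 CPM in Aire-KO. Its groups overlapped, with folds of 1.58 and 1.43 in the 2 experiments and a log2 fold change of 0.57 (95% interval -0.58 to 1.71, adjusted p = 0.603). The intervals of Cryaa and Cryab did not overlap, and the difference between them was not tested.

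Of the acidic beta-crystallins, structural proteins of the fibre cell, Cryba1 had the largest fitted difference. It lies on chromosome 11 (chr11:77532117-77538785) and had 203 and 233 counts in WT against 3 and 4 counts in Aire-KO. Both WT libraries were far above both Aire-KO libraries (log2 fold change of 6.17 ± 0.87, adjusted p = 0.0207). The gene lies wholly within the span of Nufip2 on the opposite strand, and the library kit does not keep strand. Nufip2 had 34947 and 4479 counts in WT and 26527 and 8495 counts in Aire-KO, with overlapping groups (log2 fold change of -0.19, adjusted p = 0.948). Cryba2, on chromosome 1 (chr1:74936508-74939717), had 8.81 and 17.6 CPM in WT and 1.30 and 1.91 CPM in Aire-KO. It was higher in WT by a log2 fold change of 3.04 ± 0.55 (adjusted p = 0.0353), and still had 130 and 307 counts in the libraries labelled Aire-KO. Cryba4, on chromosome 5 (chr5:112675513-112681538), had 5.68 and 11.9 CPM in WT and 1.90 and 2.20 CPM in Aire-KO. These groups did not overlap, but the log2 fold change of 2.10 ± 0.54 missed the threshold (adjusted p = 0.0732, and 0.0045 with the experiment as a block).

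The basic beta-crystallins ranged more widely. Crybb2, a major beta-crystallin of the lens, lies at chr5:113487278-113499137 and had 472 and 761 counts in WT against 6 and 5 counts in Aire-KO. Both WT libraries were far above both Aire-KO libraries here too, with a log2 fold change of 7.06 ± 0.90 (adjusted p = 0.0174) and folds of 51.0 (23.3 to 139.7) in the first experiment and 287.7 (122.7 to 888.5) in the replicate experiment. Crybb3 lies on the same strand with 5721 bases between the genes (chr5:113504859-113510604), and had 4.49 and 9.97 CPM in WT and 2.15 and 6.63 CPM in Aire-KO. Its groups overlapped (log2 fold change of 0.72, 95% interval -0.96 to 2.39, adjusted p = 0.665), and its interval did not reach that of Crybb2 (4.88 to 9.23), although the difference itself was not tested. Without WT replicate 2 the fitted difference of Crybb3 was -0.01. Crybb1 (chr5:112684835-112698605) had 5.64 and 11.8 CPM in WT and 2.27 and 3.26 CPM in Aire-KO. Its groups did not overlap and its log2 fold change of 1.65 ± 0.54 missed the threshold (adjusted p = 0.136, and 0.0101 with the experiment as a block). Crybb1 and Cryba4 are read in opposite directions from starts 3296 bases apart, and their fitted differences of 1.65 and 2.10 lay within each other's interval.

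The gamma-crystallins comprised Crygs, a structural protein that the lens makes into adult life, and Crygn, a member found in eye and brain. Crygs, on chromosome 16 (chr16:22805276-22811483), had 367 and 514 counts in WT, 7 counts in Aire-KO replicate 1 and 0 counts in Aire-KO replicate 2. It was higher in WT (log2 fold change of 7.05 ± 1.41, adjusted p = 0.0421), by a fold of 34.0 (16.3 to 85.2) in the first experiment and at least 324-fold in the replicate experiment, with the 0 counts set to a limit of 3 per library. Crygn, at chr5:24256821-24263826, had 1.58 and 7.03 CPM in WT and 0.320 and 1.02 CPM in Aire-KO. The groups did not overlap, and the ratio between the 2 WT libraries was larger than for any other crystallin. Its log2 fold change of 2.67 ± 0.94 missed the threshold (adjusted p = 0.157, and 0.0051 with the experiment as a block).

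**Figure D2:**
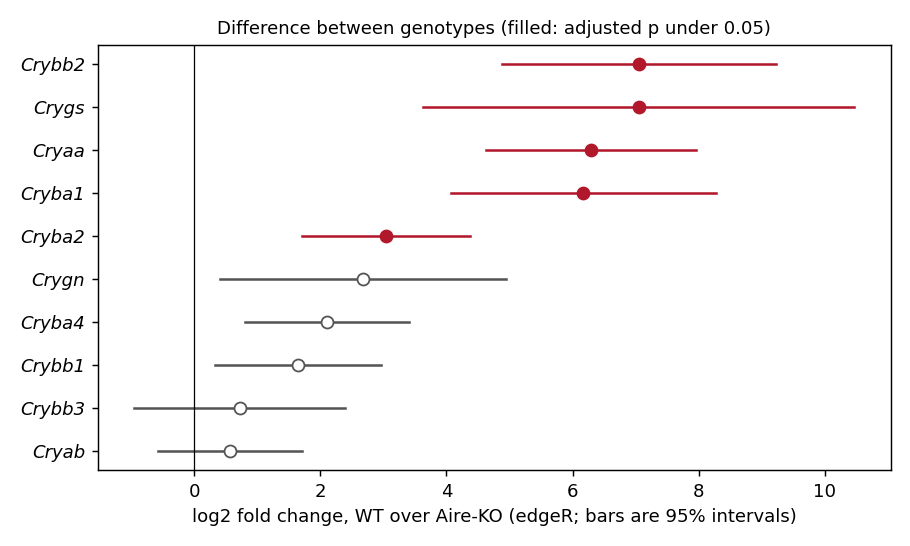
Fitted log2 fold change (WT over Aire-KO) for each crystallin gene, with bars for the 95% interval and filled points for adjusted p under 0.05. Cryaa, Cryba1, Crybb2 and Crygs lie from 6.17 to 7.06 and Cryba2 at 3.04, and the intervals of Cryab and Crybb3 include 0.

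Where the reads fell along the transcripts was taken from the counts by transcript part. The last exon of Cryaa, 62.8% of its length, held 74.5% and 69.3% of the reads in WT and 73.1% and 80.7% in Aire-KO. The part annotated as the 5'UTR of Cryab, 519 bases or 43.8% of the transcript, held only 8.8% and 10.8% of reads in WT and 14.7% and 11.0% in Aire-KO, so that a level per annotated length is low for this gene. For Cryba4 the share of the last exon was higher in the first experiment for both genotypes, at 53.9% (WT) and 49.2% (Aire-KO) in the libraries of replicate 1 against 35.0% and 25.4% in those of replicate 2, and WT was above Aire-KO in both, with intervals that did not overlap for replicate 2 (lower end 32.1 in WT and upper end 30.3 in Aire-KO). For Crygn it was 18.4% and 23.5% in WT and 31.2% and 42.1% in Aire-KO, and the exact 95% intervals of WT (upper end 27.1) and Aire-KO (lower end 34.4) did not overlap for replicate 2. The 7 reads of Crygs in Aire-KO replicate 1 all lay in its last exon, where WT had 59.2% and 60.0%, and 7 reads allow a share down to 59.0%. None of the 10 genes had a distal 3'UTR part in the deposited counts, so no ratio of long to short 3'UTR could be formed for them. These intervals cover counting error only, since PCR reads without molecular identifiers are not independent molecules, and no test was made.

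**Figure D3:**
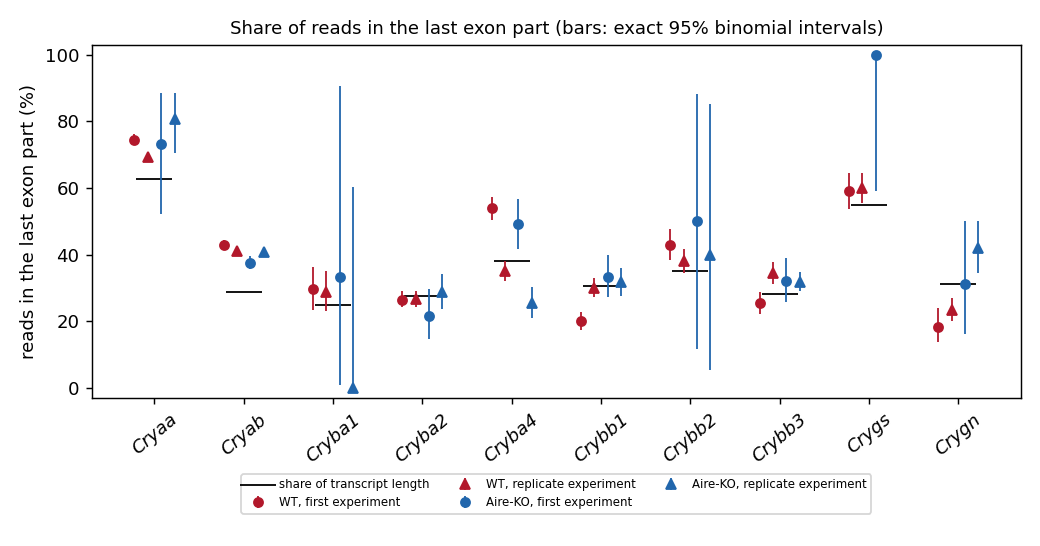
Share of each crystallin gene's reads that fell in its last exon (percent) in each library, with exact 95% binomial intervals and a black bar at the share of transcript length. In Cryba4 the shares of the first experiment (53.9% and 49.2%) lie above those of the replicate experiment, and in Aire-KO the few reads of Cryba1, Crybb2 and Crygs leave wide intervals.

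Other crystallins and other genes of the lens were then set beside the 10. Of 13 further genes that carry a crystallin name, 11 were tested and none passed with edgeR, against 3 with an unadjusted p under 0.05. With the experiment as a block 2 were higher (15.6% of all genes) and with DESeq2 3 were (12.7% of its genes). Among the 13 the gamma-crystallins of the lens core had few counts. Crygb had 106 and 75 counts in WT and 6 counts in each Aire-KO library (log2 fold change of 4.00, adjusted p = 0.0527). Crygc had 60 and 155 counts in WT and 4 and 1 counts in Aire-KO (5.63, adjusted p = 0.0623), and Cryge had 13 and 24 counts in WT and none in Aire-KO, or at least 2.81-fold more in the first experiment and at least 15.1-fold more in the replicate, with the limit of 3 counts per library. Both WT libraries lay above both Aire-KO libraries for Crygb, Crygc and Cryge, as for 29.1% of all genes tested. For Cryga the groups overlapped, with 66 and 61 counts in WT and 35 and 70 counts in Aire-KO (0.54, adjusted p = 0.787). Gamma-crystallins A to F are close copies of each other, and how reads were split between them is uncertain. Cryzl1, an enzyme-like gene that is no lens structural protein, had 17.5 and 22.5 CPM in WT and 27.9 and 26.9 CPM in Aire-KO (-0.46, adjusted p = 0.577), and the median of the 11 genes was -0.08.

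Some genes of the lens fibre cell were higher in WT. Of 12 listed, 11 were tested, 4 were higher in WT and none was lower, where 6.23% and 0.273% of all genes were, and the median was 4.26 on the log2 scale. With the experiment as a block 8 were higher, against 15.6% of all genes. Mip, the water channel of the fibre cell membrane, had 1030 and 701 counts in WT and 4 and 0 counts in Aire-KO (log2 fold change of 8.71, adjusted p = 0.0188). Birc7, an inhibitor of apoptosis, had 290 and 245 counts in WT and 1 and 0 counts in Aire-KO (8.89, adjusted p = 0.0178). Fitted against 0 or 1 count, such values depend on the prior count of the fit, and the ratio of Birc7 over the pooled libraries was 583.6 (exact 95% interval of counting error 104.3 to 23090). Grifin, a galectin-related protein of the lens, had 254 and 289 counts in WT and 14 and 7 counts in Aire-KO (4.81, adjusted p = 0.0362). Lgsn, the lens protein lengsin, had 136 and 30 counts in WT and 1 and 0 counts in Aire-KO (6.93, adjusted p = 0.0468; pooled ratio 181.1, interval 32.0 to 7195), and did not pass without WT replicate 1 (adjusted p = 0.224). Grifin did not pass without WT replicate 2 (adjusted p = 0.0747).

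The transcription factors that direct lens development did not pass the test in either direction. All 12 listed were tested, the median was 0.26, 3 had an unadjusted p under 0.05, and 3 were higher with DESeq2 (12.7% of its genes). With the experiment as a block 1 was higher (Sox2) and 1 lower (Mafg), where 15.6% and 9.43% of all genes were. Pax6, a master regulator of eye development, had 1.46 and 2.11 CPM in WT and 1.36 and 1.15 CPM in Aire-KO (log2 fold change of 0.51, adjusted p = 0.714). Maf, the large Maf factor of the lens fibre, had 53.2 and 16.3 CPM in WT and 66.6 and 21.8 CPM in Aire-KO (-0.35, adjusted p = 0.867), a difference whose sign turned under library sizes alone (0.01). Mafg, a small Maf partner, had a log2 fold change of -0.85 (adjusted p = 0.372) and was lower with the experiment as a block (adjusted p = 0.0181). The genes with the smallest p were Foxe3, a regulator of the lens epithelium, with 32 and 23 counts in WT and 1 and 0 counts in Aire-KO (5.55, adjusted p = 0.08; pooled ratio 60.0, interval 10.3 to 2412), Sox1, an activator of gamma-crystallins, with 74 and 26 counts in WT and 2 and 0 counts in Aire-KO (5.38, adjusted p = 0.0841; pooled ratio 54.5, interval 14.7 to 456.6), and Sox2, an inducer of early lens genes (1.61, adjusted p = 0.117).

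For Cryab the comparison was extended to small heat shock genes and to striated muscle, where it is also expressed. None of 7 small heat shock genes passed, 1 had an unadjusted p under 0.05, and their median was 0.06. With DESeq2 1 was higher (12.7% of its genes) and with the experiment as a block 2 were (15.6% of all genes). Hspb1 had the highest level of those with the smallest p, with 310.5 and 360.2 CPM in WT and 143.0 and 349.5 CPM in Aire-KO (log2 fold change of 0.45, adjusted p = 0.724), and -0.06 without Aire-KO replicate 1. Hspb8 gave 0.76 (adjusted p = 0.34), Hspb7, a heart and muscle form, 2.06 (adjusted p = 0.107), and Hspb9, a testis form, -0.73 (adjusted p = 0.717). Of 9 striated muscle genes 2 were higher in WT and none was lower (6.23% and 0.273% of all genes), with a median of 1.16. With the experiment as a block 3 were higher (15.6% of all genes) and 1 was lower (9.43%), namely Des, the muscle filament protein desmin, with 48.0 and 79.6 CPM in WT and 146.3 and 181.9 CPM in Aire-KO (log2 fold change of -1.36, adjusted p = 0.117, and 0.00109 with the block). Actc1, the cardiac actin, had 988 and 743 counts in WT and 51 and 184 counts in Aire-KO (3.19, adjusted p = 0.0376). Mb, the oxygen carrier myoglobin, had 311 and 437 counts in WT and 17 and 40 counts in Aire-KO (4.08, adjusted p = 0.0355), and did not pass without WT replicate 2 (adjusted p = 0.128).

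Finally the genes beside the crystallins were examined, as the nearest 2 on each side of each gene or gene pair. Of 32 neighbours 31 were tested, 3 were higher in WT (9.7%, against 6.23% of all genes), none was lower, and the median was -0.21. All 3 lay at the Cryba2 locus on chromosome 1. Fev, a transcription factor of serotonin neurons, lies 4515 bases from Cryba2 and had 182 and 260 counts in WT and 0 and 3 counts in Aire-KO (log2 fold change of 7.48, adjusted p = 0.0279; pooled ratio 160.7, interval 54.6 to 782.3). Cfap65, a protein of the sperm flagellum, lies 8928 bases away on the other side and had 3201 and 772 counts in WT and 92 and 85 counts in Aire-KO (4.37, adjusted p = 0.0227). Ihh, the Indian hedgehog signal, had 594 and 377 counts in WT and 53 and 70 counts in Aire-KO (3.10, adjusted p = 0.0325), and did not pass without WT replicate 2 (adjusted p = 0.0524). Next to Cryab, 404 bases away and read in the opposite direction, the small heat shock gene Hspb2 had 4.27 and 10.3 CPM in WT and 6.23 and 8.55 CPM in Aire-KO (-0.02, adjusted p = 0.989). With the experiment as a block 5 of the 31 neighbours were higher and 2 were lower, where 15.6% and 9.43% of all genes were. The additional higher ones were Cbs, 40734 bases from Cryaa (adjusted p = 0.0135), and Myo18b, 161896 bases from the Crybb2 and Crybb3 pair (adjusted p = 0.00331). The lower ones were Sik1, 162526 bases from Cryaa (adjusted p = 0.0272), and Mn1, 789460 bases from the Cryba4 and Crybb1 pair (adjusted p = 0.000358). No neighbour of Cryba1, Crygs or Crygn passed in either fit.

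**Figure D4:**
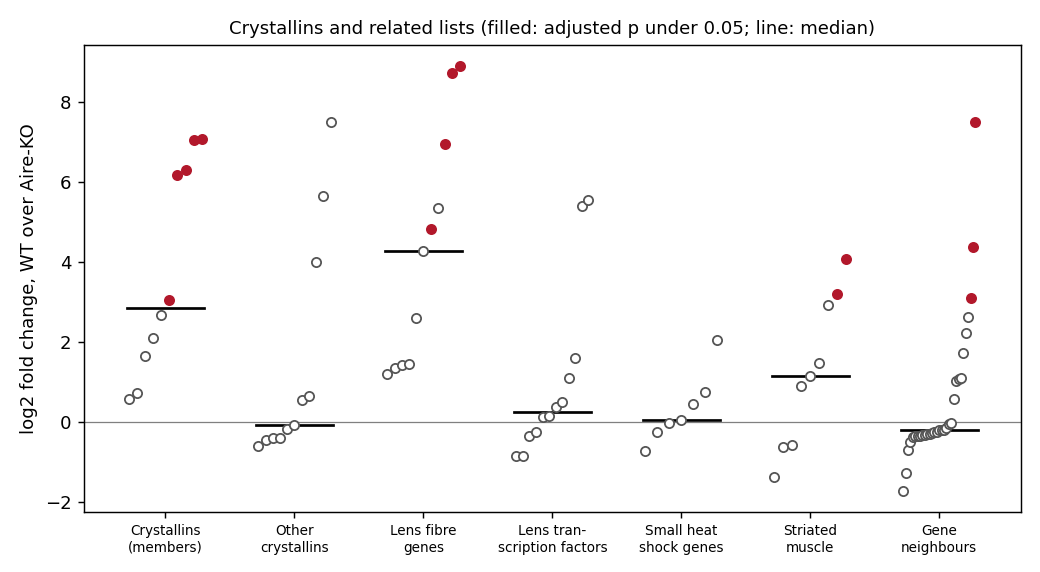
Fitted log2 fold change (WT over Aire-KO) for every tested gene in the crystallin family, in the related lists and among the gene neighbours, with a line at each median and filled points for adjusted p under 0.05. The medians are 2.86 for the 10 crystallins and 4.26 for lens fibre genes, and lie between -0.21 and 1.16 for the other lists.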

How the data were processed

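Libraries were polyA-selected with a non-stranded kit. Reads were cut and joined to 50 bp, filtered with CASAVA, aligned by Bowtie 1.0.0 against mm9 and counted with bedtools when wholly inside a RefSeq exon. The deposited values are raw counts per RefSeq identifier and per transcript part, which the authors did not normalize. Of the identifiers, 95.32% were matched to a gene symbol, and 1 per gene (the one with most counts) was kept.

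Genotypes were compared with edgeR 4.0.16 (TMM, filterByExpr, quasi-likelihood test), with Benjamini and Hochberg adjustment over all genes tested and a threshold of 0.05. The 2 libraries of a genotype are separate pools, and an exact permutation test of 2 against 2 cannot go below p = 0.333. CPM were on TMM-scaled totals and RPKM on plain totals. Libraries of the same experiment deviated together (r = 0.516 across 19771 genes), and the experiment was run as a block, since the study names a replicate experiment. Other alternatives were median-of-ratios factors, library sizes alone, DESeq2 1.42.0, no filter, all RefSeq identifiers and leaving out each library. Gene spans are those of GENCODE on mm9. The crystallins, lists, motifs and tests were chosen with earlier results of these data known. All 10 crystallins were named, with the genes of each list that passed or else the 4 with the smallest p, and neighbours that passed. Aire, Hspb2, Hspb3, Cryga, Crym, Crybg2, Pax6, Maf, Nufip2, Des, Cbs, Myo18b, Sik1 and Mn1 were chosen after their values were seen. So were the cell type markers and the transcript parts described. R 4.3.3 and Python 3.11.15 were used.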

Additional observations from a re-analysis of the deposited data

Results flagged for a closer look

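Hspb9, Hspb2 and Hspb3, small heat shock genes, moved in opposite directions in the 2 experiments, and the difference between experiments was not tested. The fold of Hspb9 (WT over Aire-KO, TMM-scaled) was 1.22 for replicate 1 and 0.244 for replicate 2. The fold of Hspb2, the neighbour of Cryab, was 0.685 for replicate 1 and 1.20 for replicate 2. Hspb3 had a fold of 1.48 (exact interval of counting error 1.16 to 1.89) for replicate 1 and 0.692 (0.523 to 0.908) for replicate 2. The interval of Hspb9 for replicate 1 (0.890 to 1.67) included 1. None of the 10 crystallin genes moved in opposite directions. Of the further genes with a crystallin name, Crym (0.678 and 1.17) and Crybg2 (0.924 and 3.61) did.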

How the results depend on the processing

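Over all genes 12.7% were higher in WT with DESeq2, and with the replicate block 15.6% were higher and 9.43% lower. The count of crystallins higher in WT was 5, and it was 8 with DESeq2 and 8 with the replicate block. Under the block, calls over all genes were 62.3% higher against 95.8% without it. The count of crystallins was 6 with library sizes alone, 5 with median-of-ratios factors and 5 with no filter. Over all genes 2106, 1406 and 1636 were higher in these fits, against 1232 in the main fit. Of 100 single values of crystallin genes, 85 kept direction and call, 14 also passed the threshold, none lost it, and 1 reversed (Crybb3, which ranged from -0.01 to 1.74 when a library was left out). The summed WT level of 157.3 RPKM ranged from 106.2 to 208.5 when a library was left out.

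Further crystallins higher in WT numbered 1 with median-of-ratios factors, 2 with library sizes alone, no filter or the block, 3 with DESeq2 and 0 to 2 without a library. Lens fibre genes numbered 8 with the block and 3 to 8 without a library. Lens transcription factors numbered 3 with DESeq2, 1 with the block (and 1 lower) and 0 to 2 without a library. Small heat shock genes numbered 1 with DESeq2, 2 with the block and 0 to 1 without a library. Striated muscle genes numbered 1 to 3 without a library, and 1 was lower with DESeq2 and 1 with the block. Neighbours numbered 5 with DESeq2, 5 with the block and 2 to 5 without a library, and 1 was lower with DESeq2, 2 with the block and 0 to 1 without a library.

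Signs turned for Hspb1 (-0.06 to 1.22 without a library), Hspb2 (0.24 with library sizes alone, 0.01 with all RefSeq identifiers, -0.80 to 0.37 without a library) and Maf (0.01 with library sizes alone, -1.49 to 0.67 without a library). Library sizes alone moved the median of all genes to 0.26. The cause was not tested. Alternatives for the distal 3'UTR ratio were not run, since no crystallin had that part. With a genotype left at 1 library, its spread is assumed to be that of the other.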
